A study of Mus musculus with 17 samples.

Results

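Complement genes were followed through a bulk RNA-seq series of mouse cortex. The genes were C1qa, C1qb, C1qc, C3, C4b, Itgam and Serping1, taken by symbol, and all 7 were found among the 55453 symbols of the expression table. The values were TPM, in which each gene is a share of all transcripts of a sample after its length is taken into account. The depth of sequencing cannot be read from TPM and is unknown, so that the variation among mice of a group served as the measure of precision.

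All 17 mice were male, on a C57BL/6J background, and differed at Hnrnph2, an X-linked gene whose product, hnRNPH2, binds RNA. Hemizygous Hnrnph2 KO mice (n = 3) and their wild-type controls (n = 3) were 8 weeks old, as were hemizygous Hnrnph2 R206W mice (n = 3) and their wild-type controls (n = 3). Hemizygous Hnrnph2 P209L mice (n = 3) and their wild-type controls (n = 2 analysed here) were 3 weeks old. The substitutions were knocked into the mouse gene, and the study describes its KO line as an indel with a frameshift, on the same background. The P209L line was sampled at one age and the other lines at another, so line and age cannot be told apart for it. The labels do not give the litter of each mouse or a batch.

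Complement is a protein cascade that tags and lyses targets and calls phagocytes. C1q, built from the products of C1qa, C1qb and C1qc, binds the target and starts the classical pathway, C4 and C3 are then cleaved and deposited, and complement receptor 3, whose alpha chain (CD11b) is encoded by Itgam, lets phagocytes take up what C3 fragments have tagged. Serping1 encodes C1 inhibitor, which shuts off the proteases attached to C1q. In brain, microglia are the main source of C1q and carry CD11b, C4b and C3 are made by glia in several states, and the cascade is known for its part in the removal of synapses during development.

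The 3 C1q genes lie side by side on the minus strand of chromosome 4 (GRCm38) within 18675 bases, C1qb at 136880129 to 136886187, C1qc at 136889804 to 136893065 and C1qa at 136895917 to 136898803, each with 3 exons. C3 (57203970 to 57228136) and C4b (34728380 to 34743882) are both on the minus strand of chromosome 17. Itgam is on the plus strand of chromosome 7 at 128062640 to 128118491 and Serping1 on the minus strand of chromosome 2 at 84765387 to 84775444. The longest annotated transcripts of the C1q genes have 1040 to 1203 bases, that of Serping1 has 1768, that of Itgam 4682, that of C3 5136 and that of C4b 5379. The sequence before the start of C1qb and of Itgam is shown because C1qb moved with its neighbours from mouse to mouse while Itgam had another course with age. Each is the 250 bases before the start of transcription in RefSeq (GRCm38.p6), chr4:136886201-136886450 on the minus strand and chr7:128062390-128062639 on the plus strand. Capitals mark the letters GAGGAA, or TTCCTC where they lie on the other strand, the core of the site of PU.1, a transcription factor of myeloid cells.
C1qb: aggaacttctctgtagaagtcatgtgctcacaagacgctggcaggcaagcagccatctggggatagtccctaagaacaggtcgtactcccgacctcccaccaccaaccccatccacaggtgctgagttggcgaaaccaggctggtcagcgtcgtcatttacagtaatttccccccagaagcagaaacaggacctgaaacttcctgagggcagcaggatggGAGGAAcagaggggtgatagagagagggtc
Itgam: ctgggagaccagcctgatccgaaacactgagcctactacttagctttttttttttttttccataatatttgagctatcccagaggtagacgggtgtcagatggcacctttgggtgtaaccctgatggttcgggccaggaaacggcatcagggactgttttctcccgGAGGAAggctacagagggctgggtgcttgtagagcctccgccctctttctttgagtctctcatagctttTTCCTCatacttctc
The C1qb stretch held 1 match, 30 bases before the start, and the Itgam stretch held 2, at 84 and 15 bases before it. The RefSeq stretch of C1qc held 1 match, at 193 bases, and that of C3 held 0. Of 32851 stretches of this kind, 23.3% held at least 1 match. The letters TTCNNNGAA, bound by STAT factors, were in 0 of these 4 stretches and in 7.02% of all. A match describes the letters alone.

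C4b has a near copy, C4a, 65209 bases from it on the same strand, which GENCODE M21 annotates as a processed transcript. The longest transcripts of both genes had 96.1% identical bases over their alignment, and 35.2% of the 50-base windows of C4b also occurred in C4a without a mismatch. Of windows of 100 bases, 16.5% did. Reads from those windows cannot be assigned by sequence, so the values of C4b and C4a are uncertain and their sum is given beside them. The 60 bases in which the transcripts differ most, coding and in exon 21 of C4b (chr17:34735430-34735489, minus strand), are shown with the 13 differing bases in capitals.
C4b: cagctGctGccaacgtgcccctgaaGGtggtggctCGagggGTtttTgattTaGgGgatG
C4a: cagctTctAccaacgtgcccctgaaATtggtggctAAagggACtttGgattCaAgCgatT
By contrast, the 3 C1q transcripts shared 0 windows of 50 bases with one another.

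A pair of libraries stood apart before any comparison. P209L control 2 held 1780 TPM of 7 choroid plexus markers in sum, against 4.54 to 28.4 TPM in the other mice, and had the most oligodendrocyte transcripts, with a sum of 6110 TPM over 8 markers. KO control 1 had 20.1% of its TPM in mitochondrial genes, against 10.7% to 15.4% in the others. Neuronal markers were present in every library, with sums of 3000 to 6180 TPM over 8 genes, and Hnrnph2 was at 21.3 to 24.4 TPM in the KO mice and at 80.5 to 160 TPM in the others. Neutrophil and monocyte markers (8 genes) summed to at most 4.06 TPM. Where leaving out P209L control 2 or KO control 1 ended a call or turned a direction of a complement gene, the value without it is given.

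The C1q genes were the most abundant of the group, at 45.0 to 101 TPM over all mice, while C4b, Itgam and Serping1 lay between 2.88 and 13.8 TPM and C3 was close to 0. For C1qa, the KO controls had 45.0, 47.2 and 51.5 TPM and the KO mice 49.7, 51.9 and 75.1 TPM. The R206W controls had 50.6, 54.0 and 58.4 TPM and R206W mice 48.5, 53.7 and 56.7 TPM. The P209L controls had 47.3 and 75.2 TPM and P209L mice 49.0, 50.01 and 61.1 TPM. The highest values came from KO 3 and P209L control 2, and every mutant group overlapped its own controls.

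C1qb gave 57.3, 57.5 and 59.5 TPM in the KO controls and 66.9, 67.0 and 84.0 TPM in KO. It gave 61.0, 64.4 and 70.1 TPM in the R206W controls and 56.8, 61.1 and 63.1 TPM in R206W. It gave 64.4 and 101 TPM in the P209L controls and 67.1, 67.8 and 71.4 TPM in P209L. C1qb thus differed without overlap between KO mice and their controls, and overlapped in the other lines.

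C1qc showed the same layout, with 48.1, 53.4 and 53.7 TPM in the KO controls and 59.8, 62.2 and 73.7 TPM in KO. The R206W controls held 55.1, 56.0 and 61.4 TPM of it and R206W mice 53.3, 57.1 and 59.5 TPM. The P209L controls held 57.9 and 86.1 TPM and P209L mice 62.2, 69.5 and 77.7 TPM. In order of the group means, C1qc ran from P209L controls (72.0 ± 20.0 TPM, SD, n = 2) through P209L (69.8 ± 7.72, n = 3), KO (65.3 ± 7.43, n = 3), R206W controls (57.5 ± 3.43, n = 3) and R206W (56.6 ± 3.13, n = 3) to KO controls (51.7 ± 3.18, n = 3), and each neighbour in that order overlapped the next. The order for C1qa and C1qb also began with the P209L controls and ended with the KO controls, and there too all neighbours overlapped.

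C3, the central protein of the cascade, was barely detected. It read 0.02, 0.09 and 0.14 TPM in the KO controls, 0.04, 0.05 and 0.14 TPM in KO, 0.08, 0.08 and 0.13 TPM in the R206W controls and 0.02, 0.08 and 0.13 TPM in R206W. The 3-week mice had 0.11 and 0.19 TPM in the controls and 0.21, 0.22 and 0.27 TPM in P209L. P209L mice were above every 8-week mouse, and the P209L controls overlapped the 8-week range. C3 did not reach the mean of 1 TPM that a gene needed to be tested, so the tests below cover 6 of the 7 genes. Without that filter, C3 differed between P209L and the 8-week mutants by 0.20 on the log2(TPM + 1) scale (SE 0.0434, adjusted p = 0.00595), where 21.8% of the 33969 genes passed, and its adjusted p was 0.357 or more in the 7 other comparisons. A difference of about 0.1 to 0.2 TPM in libraries of unknown depth sets no firm level for this gene.

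C4b was low and spread most in the 3-week mice. The KO controls had 2.90, 2.96 and 3.25 TPM and KO mice 3.93, 4.59 and 6.51 TPM. The R206W controls had 3.55, 5.33 and 5.52 TPM and R206W mice 3.83, 4.18 and 5.15 TPM. The P209L controls had 3.48 and 7.12 TPM and P209L mice 6.74, 8.28 and 13.8 TPM. KO mice were above their controls without overlap, and P209L mice overlapped theirs through P209L control 2. The group means ran from P209L (9.61 ± 3.72 TPM, SD, n = 3) through P209L controls (5.30 ± 2.57, n = 2), KO (5.01 ± 1.34, n = 3), R206W controls (4.80 ± 1.09, n = 3) and R206W (4.39 ± 0.684, n = 3) to KO controls (3.04 ± 0.187, n = 3), and of these neighbours only R206W and the KO controls did not overlap.

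Itgam divided the mice by age. The 8-week mice lay between 5.40 and 10.8 TPM, with a median of 8.38 TPM (n = 12), and the 3-week mice had 3.62 and 5.06 TPM in the controls and 3.24, 3.32 and 4.05 TPM in P209L. No 3-week mouse reached the lowest 8-week value, which was that of KO control 1. The next lowest 8-week value was 7.02 TPM. Within the 8-week lines the means were 7.85 ± 2.14 TPM in KO controls, 8.51 ± 2.01 in KO, 8.46 ± 0.911 in R206W controls and 8.33 ± 0.387 in R206W (SD, n = 3 each), and all of these overlapped.

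Serping1 had 4.05, 4.21 and 5.88 TPM in the KO controls and 4.05, 5.14 and 8.75 TPM in KO. It had 5.01, 5.43 and 7.99 TPM in the R206W controls and 5.07, 5.53 and 7.52 TPM in R206W. It had 3.93 and 5.56 TPM in the P209L controls and 2.88, 3.17 and 4.42 TPM in P209L. Its group means fell from R206W controls (6.14 TPM) through R206W (6.04), KO (5.98), P209L controls (4.75) and KO controls (4.71) to P209L (3.49), and all neighbours overlapped.

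**Figure D1:**
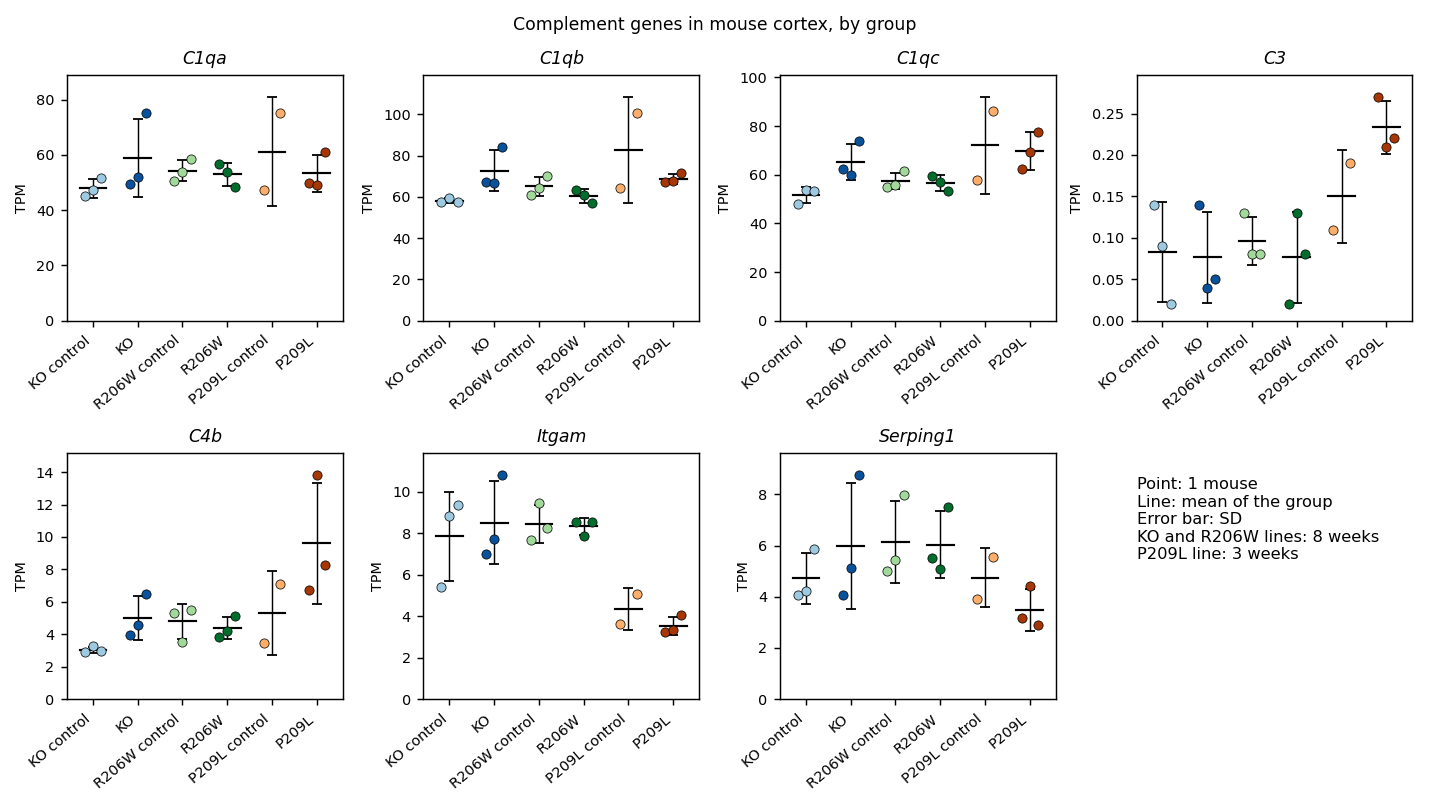
TPM of the 7 complement genes by group, with a point for each mouse, a line for the mean and a bar for the SD. The y axes start at 0 and differ between panels. Itgam lies lower in all 5 mice of 3 weeks than in the 12 mice of 8 weeks, and C3 is at or below 0.27 TPM in every mouse.

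Each mutant group was compared with its own controls to ask whether a change in Hnrnph2 altered the complement genes. At an adjusted p under 0.05 (limma, Benjamini-Hochberg over 16265 genes), 0 of the 6 genes tested changed in KO, 0 in R206W and 0 in P209L cortex. Over all genes 0.00615% passed in KO, 0.0369% in R206W and 0.0984% in P209L, so few calls of any kind were made. At an unadjusted p under 0.05, 3 of the 6 passed in KO (4.08% of all genes), 0 in R206W (2.19%) and 1 in P209L (7.46%).

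In KO cortex the values of C1qb, C1qc and C4b were those with the smallest p. C1qb was 0.31 higher on the log2(TPM + 1) scale (95% interval 0.02 to 0.60, limma, adjusted p = 0.999), a ratio of mean TPM of 1.25. C1qc was 0.33 higher (0.04 to 0.61, limma, adjusted p = 0.999), and C4b was 0.55 higher (0.03 to 1.08, limma, adjusted p = 0.999). These 3 genes did not overlap between KO mice and controls, which held for 6.25% of all genes tested. C1qa differed by 0.27 (-0.09 to 0.63), Itgam by 0.12 (-0.27 to 0.50) and Serping1 by 0.25 (-0.26 to 0.75). Without KO 3, Itgam turned to -0.05 and Serping1 to -0.02. With each mouse left out, the lowest difference was 0.08 for C1qa, 0.20 for C1qb, 0.24 for C1qc and 0.38 for C4b.

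The KO controls were the lowest group for C1qa, C1qb, C1qc and C4b, and the same 3 genes, C1qb, C1qc and C4b, also did not overlap between them and the wild-type R206W controls of the same age, as for 9.07% of all genes. C4b was 0.51 higher in the R206W controls than in the KO controls (limma, SE 0.248, adjusted p = 0.784), and 0 of the 6 genes and 0.0% of all genes passed in that comparison of wild-type groups. Without KO control 1, and without P209L control 2, the KO differences were 0.30 for C1qb, 0.27 for C1qc and 0.53 for C4b, and that of Itgam turned to -0.10. The whole table was also higher in KO, with a median log2 difference of 0.06 over all genes, which median-of-ratios scaling took to about 0 and which left 0.23 for C1qb, 0.25 for C1qc and 0.49 for C4b.

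In R206W cortex all 6 differences lay between -0.11 and -0.01 on the log2 scale. The intervals allow a change of C1qb from -0.40 to 0.18, of C1qc from -0.31 to 0.27, of C4b from -0.62 to 0.43 and of Itgam from -0.40 to 0.37. Of the 6 genes, 0 were without overlap, against 16.2% of all genes. The KO difference minus the R206W difference was 0.42 for C1qb (0.01 to 0.83, limma, adjusted p = 1.0) and 0.65 for C4b (-0.10 to 1.39), and 0 of the 6 genes passed in that test of the difference, where 0.0307% of all genes did.

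In P209L cortex C4b was 0.76 higher than in controls (limma, 95% interval 0.17 to 1.35, adjusted p = 0.509), with mean levels of 9.61 and 5.30 TPM. The other 5 genes were at or below their controls, from -0.02 for C1qc to -0.36 for Serping1, each with an adjusted p of 0.834 or more. Of the 6 genes, 0 were without overlap, against 24.9% of all genes in this comparison of 3 mice with 2. Leaving out P209L control 2, the library with choroid plexus transcripts, raised the C4b difference to 1.19 and turned those of C1qa, C1qb and C1qc to 0.16, 0.09 and 0.26, with 1 control mouse left. The P209L difference minus the R206W difference was 0.86 for C4b (0.07 to 1.64, limma, adjusted p = 1.0), and 0.0% of all genes passed in that test.

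**Figure D2:**
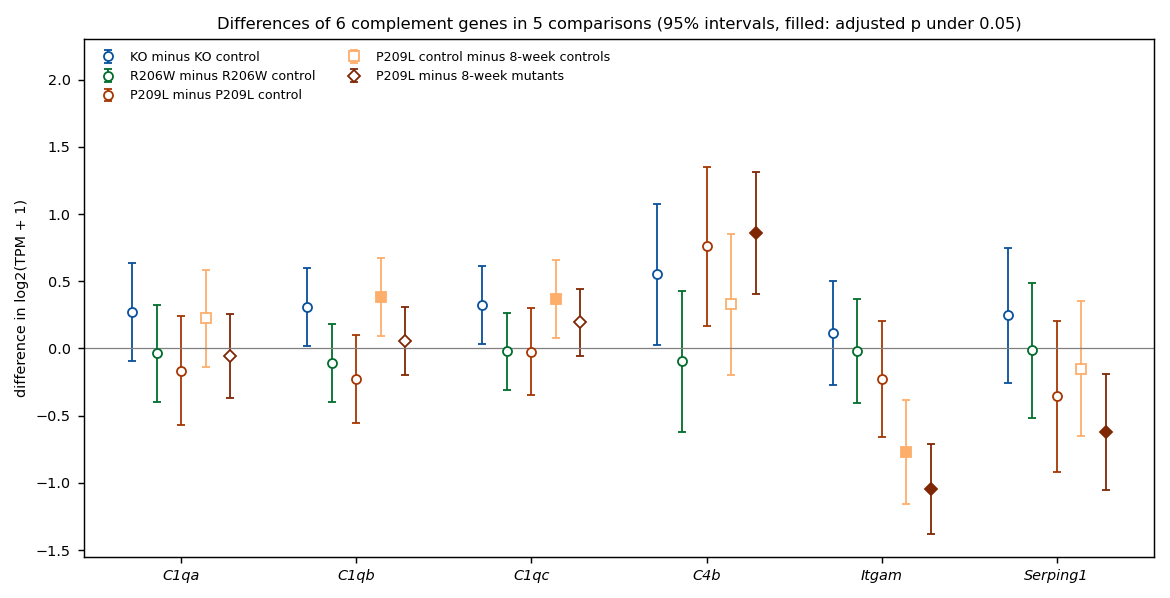
Differences of 6 complement genes on the log2(TPM + 1) scale with 95% intervals from limma, in 3 comparisons of mutants with their controls (circles) and 2 comparisons of 3-week with 8-week mice (square, diamond). Filled symbols have an adjusted p under 0.05: C1qb, C1qc and Itgam in controls, and C4b, Itgam and Serping1 in mutants, all between 3-week and 8-week mice.

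C4a, whose reads overlap those of C4b, had 1.78, 2.38 and 3.37 TPM in the KO controls and 3.25, 3.63 and 5.90 TPM in KO. It had 2.71, 3.04 and 3.56 TPM in the R206W controls and 2.59, 2.63 and 3.73 TPM in R206W, and 4.14 and 4.65 TPM in the P209L controls and 5.07, 5.77 and 8.42 TPM in P209L. P209L mice were above their controls without overlap for C4a. Over all 17 mice C4a and C4b had r = 0.685, and r = 0.0625 once group means were taken off. The share of C4a in the sum of both ran from 29.5% to 57.2%, both of these in 3-week mice.

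Summed, C4a and C4b came to 4.68, 5.63 and 6.33 TPM in the KO controls and 7.56, 7.84 and 12.4 TPM in KO. The R206W controls had 6.59, 8.23 and 8.89 TPM and R206W mice 6.42, 6.81 and 8.88 TPM. The P209L controls had 8.13 and 11.3 TPM and P209L mice 13.4, 15.2 and 19.6 TPM. KO mice and P209L mice were thus each above their own controls without overlap, as groups were for 6.25% and 24.9% of all genes. The log2 difference of the sum was 0.63 in KO (limma, SE 0.194, adjusted p = 0.999), -0.09 in R206W (adjusted p = 1.0) and 0.67 in P209L (SE 0.217, adjusted p = 0.397). The sum was formed after the values of both genes had been seen.

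**Figure D3:**
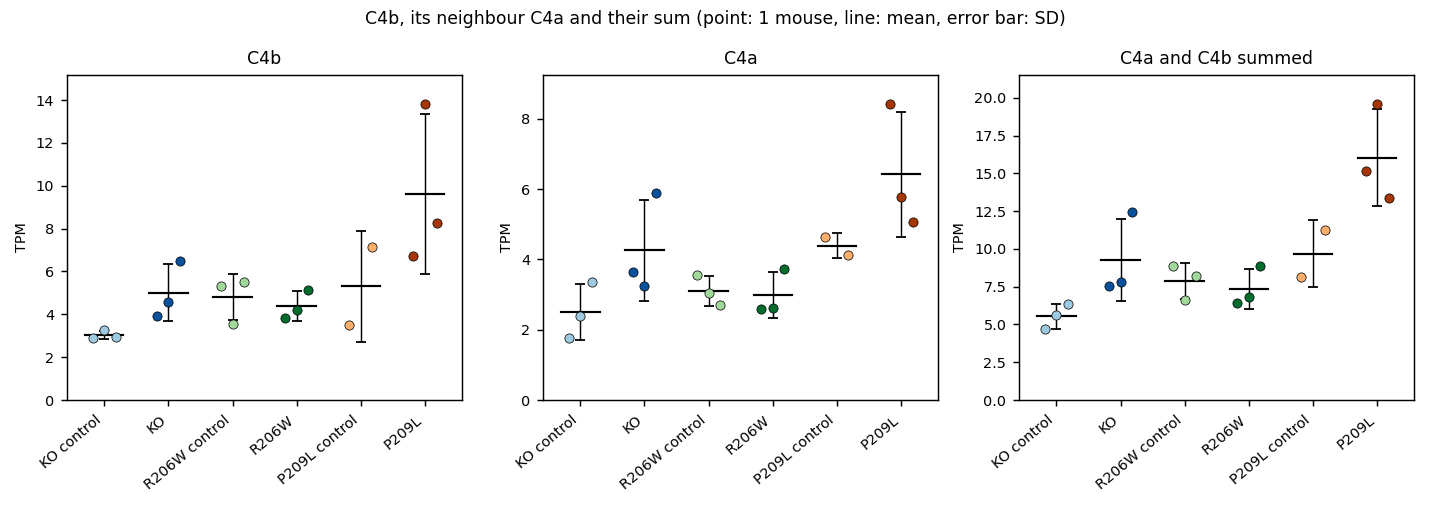
TPM of C4b, of its neighbour C4a and of their sum by group (point, 1 mouse; line, mean; bar, SD). The sum reaches 13.4 to 19.6 TPM in P209L mice and 4.68 to 6.33 TPM in the KO controls.

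The wild-type P209L controls were compared with the 6 wild-type mice of 8 weeks to see how the genes differ with age, and P209L mice with the 6 mutant mice of 8 weeks. Both comparisons set 1 line against others, and their genes differ widely: 36.1% of all genes passed in controls (11.3% higher and 24.8% lower at 3 weeks) and 45.9% in mutants (13.9% higher and 32.1% lower). Median-of-ratios scaling, which centres the genes of each library, evened this out, since 48.8% of the genes that passed in controls were then higher at 3 weeks against 31.3% without it, and 50.5% against 30.2% in mutants. Of the 6 complement genes, 3 passed in each. Among controls C1qb and C1qc were higher and Itgam lower at 3 weeks, and among mutants C4b was higher and Itgam and Serping1 lower. With that background, 3 of 6 is not a result about the group as a whole.

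The lower level of Itgam was the one difference shared by both comparisons. It was -0.77 in controls (limma, 95% interval -1.16 to -0.39, adjusted p = 0.00451), with mean levels of 4.34 and 8.16 TPM, and -1.05 in mutants (-1.38 to -0.71, adjusted p = 0.000136), with mean levels of 3.54 and 8.42 TPM. It was without overlap in both, where 38.2% and 40.2% of all genes were. The median of all genes was -0.12 in controls and -0.16 in mutants, a shift that median-of-ratios scaling removed, and Itgam was then lower by -0.65 and -0.90. In controls the call was lost without P209L control 1 (-0.58, adjusted p = 0.104).

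C4b was 0.86 higher in P209L mice than in the 8-week mutants (limma, 95% interval 0.40 to 1.31, adjusted p = 0.00459), and no P209L mouse fell to the highest of the 8-week mutants, KO 3 with 6.51 TPM. In the controls C4b differed by 0.33 (-0.20 to 0.85, adjusted p = 0.317), and by -0.10 without P209L control 2. For C4a and C4b summed the differences were 0.88 in mutants (adjusted p = 0.000759) and 0.48 in controls (adjusted p = 0.0656).

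C1qb and C1qc were 0.39 and 0.37 higher in the P209L controls than in the 8-week controls (limma, adjusted p = 0.0386 and 0.0443), and C1qa was 0.22 higher (adjusted p = 0.32). These calls rested on P209L control 2, since without it C1qb was 0.07 and C1qc 0.09 higher (adjusted p = 0.774 and 0.716) and C1qa was -0.10. Leaving out KO control 2, KO control 3, R206W control 1 or R206W control 2 also ended both calls, with adjusted p from 0.0503 to 0.0755 and differences of 0.35 to 0.39. In P209L control 1, C1qb at 64.4 TPM and C1qc at 57.9 TPM lay within the range of the 8-week controls. In mutants C1qa differed by -0.06, C1qb by 0.06 and C1qc by 0.19, none past the threshold. With median-of-ratios scaling C1qc was 0.38 higher in P209L mice (adjusted p = 0.0105) and C1qa turned to 0.12.

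Serping1 was -0.62 in P209L mice against the 8-week mutants (limma, 95% interval -1.06 to -0.19, adjusted p = 0.0215), with mean levels of 3.49 and 6.01 TPM and with overlap. The difference was -0.47 under median-of-ratios scaling (adjusted p = 0.0544), so its call depended on the scaling, and it was -0.15 in controls (adjusted p = 0.648). The call was also lost with quantile scaling (-0.45, adjusted p = 0.0587), without a filter (-0.62, adjusted p = 0.0583) and with sample weights (-0.33, adjusted p = 0.176). It was lost too without P209L 1 (-0.58, adjusted p = 0.0764) and without P209L 3 (-0.52, adjusted p = 0.0903). The 10 leptomeningeal fibroblast markers, all tested, had 6 lower and 0 higher in the same comparison of mutants (32.1% and 13.9% of all genes), with sums of 50.8 to 75.5 TPM in P209L mice and 62.3 to 134 TPM in the 8-week mutants, and their part in the Serping1 difference was not tested. In bulk tissue, fewer cells of a type and less RNA per cell cannot be told apart, here and for the other genes.

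The C1q genes and Itgam are both used to follow microglia, so they were set beside 14 microglia markers chosen without them. The sum of these markers was 375 to 461 TPM in the 3-week mice and 395 to 503 TPM in the 8-week mice. The list did not move as one with age: in controls 3 of the 14 were higher and 5 lower at 3 weeks, and in mutants 4 were higher and 6 lower, where 36.1% and 45.9% of all genes passed, with Trem2 and Tyrobp among the higher and Csf1r and P2ry12 among the lower in both. Csf1r, the receptor that keeps microglia alive, was lower by -0.85 and -1.27 (adjusted p = 0.0136 and 0.000274), while Trem2, a lipid receptor, was 0.58 and 0.45 higher (adjusted p = 0.00737 and 0.0101). P209L controls 1 and 2 had 20.2 and 28.9 TPM of Trem2, against 14.6 to 18.9 TPM in the 8-week controls. For Csf1r they had 21.05 and 28.1 TPM, against 28.4 to 53.5 TPM. No fit with a mouse left out is given for these markers. With median-of-ratios scaling 3 markers were higher and 4 lower in controls, where 7180 of all 16265 genes passed. With quantile scaling 3 were higher and 3 lower, where 7232 passed. As a share of the mean of the 3 C1q genes, Itgam was 5.35% to 6.40% in the 3-week mice and 10.8% to 17.3% in the 8-week mice.

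In KO cortex 12 of the 14 microglia markers were above their controls, with a median difference of 0.17, beside a median of 0.29 for the 6 complement genes and 0.06 for all genes, and 0 of the 14 passed. Several other lists did likewise, with 8 of 8 endothelial markers above the controls (median 0.31) and 9 of 10 leptomeningeal fibroblast markers (0.24). So did 8 of 9 astrocyte markers (0.20), 8 of 8 oligodendrocyte markers (0.19) and 7 of 8 tested interferon response genes (0.23). Neuron markers did not, with 4 of 8 above the controls (0.01). Border macrophage (0.07) and reactive astrocyte markers (0.06) had medians near that of all genes. Of the 5 reactive astrocyte markers tested, 3 were above the controls. Their list nonetheless summed to 117 to 159 TPM in KO mice and 91.7 to 103 TPM in KO controls. Gfap had 84.7, 96.7 and 93.5 TPM in KO and 66.1, 55.4 and 56.5 TPM in the controls. It did not overlap, as for 6.25% of all genes tested. In each of these lists 0 genes passed. With median-of-ratios scaling their medians ran from -0.07 (neuron) to 0.26 (endothelial), beside 0.09 for microglia and 0.21 for the complement genes. KO 3, which had the highest C1q values of the 8-week mice, also had the highest microglia sum, 503 TPM. Its endothelial sum of 296 TPM over 8 markers was the highest of all mice as well. The part of these in the KO values was not tested. Border macrophage markers, which mark other CD11b-bearing cells of the brain, summed to 6.85 to 13.6 TPM over 7 genes in all mice.

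**Figure D4:**
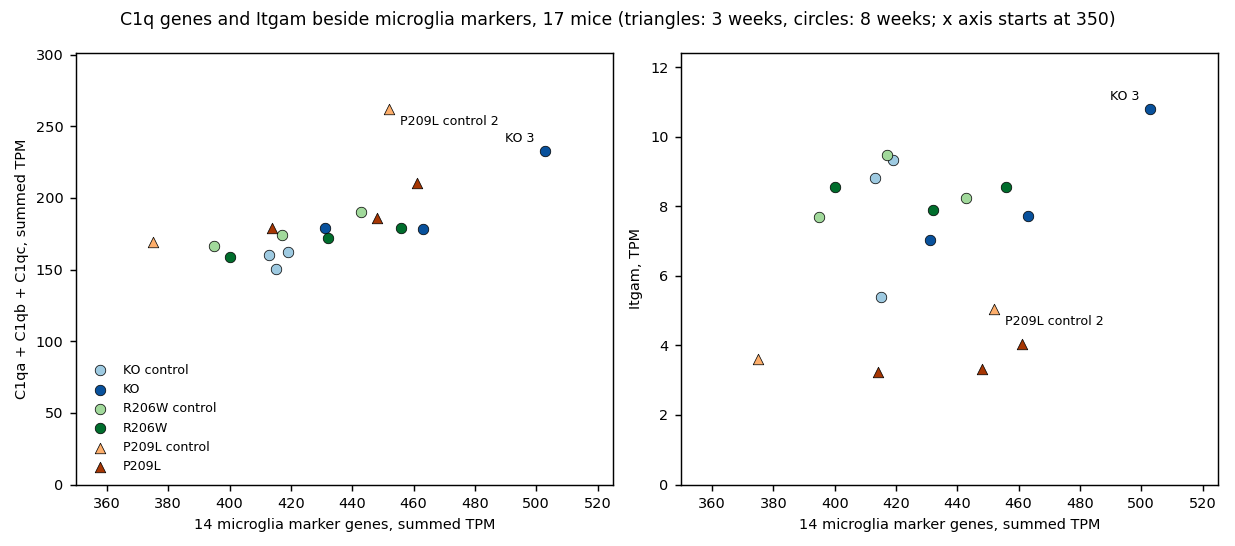
Summed TPM of the 3 C1q genes (left) and TPM of Itgam (right) against the summed TPM of 14 microglia markers, with a point for each of 17 mice. At like marker sums the 3-week mice (triangles) lie at 3.24 to 5.06 TPM of Itgam and within or above the C1q range of the 8-week mice. P209L control 2 has the highest C1q sum, 262 TPM.

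Within groups, the 3 C1q genes followed one another closely. After the mean of each group was taken off the log2 values of the 17 mice, r was 0.925 for C1qa and C1qb, 0.923 for C1qa and C1qc and 0.926 for C1qb and C1qc. C4b followed C1qc with r = 0.60 and Serping1 with r = 0.706. Itgam went with C1qa (r = 0.737) more than with C4b (r = 0.327). These values are a description over mice that share libraries and scaling, with KO 3 and P209L control 2 far from their groups. For Itgam, KO control 1 was far from its group too, at 5.40 TPM against 8.82 and 9.34 TPM. Against the microglia markers the median r was 0.671 for C1qa, 0.583 for C1qb, 0.541 for C1qc, 0.36 for Itgam, 0.362 for Serping1 and 0.29 for C4b. The markers did not act as one, and for each of these genes the lowest r was below 0. It ran from -0.249 (Gpr34) to 0.775 (Cx3cr1) for C1qa and from -0.715 (Gpr34) to 0.936 (Csf1r) for Itgam.

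The genes most like each were then looked up among all genes tested, by the same r within groups over 17 mice. For the mean of the C1q genes these included Ifitm3 (r = 0.902), Rlbp1 (0.899), Rgcc (0.899) and Vcam1 (0.885). Ifitm3 encodes an interferon-induced membrane protein. For C4b they were Icosl (0.887), Isoc2a (0.884), Nde1 (0.869), Angptl4 (0.868) and Prelp (0.864). For Itgam they were Garem2 (0.963), Banf1 (0.96), Armc5 (0.95), Dnal4 (0.943) and Snx9 (0.942), none of which is a microglia marker of the list, although Csf1r reached 0.936. For Serping1 they were Tgfbr3 (0.937), Fmod (0.926), Emp1 (0.923), Bmp6 (0.911) and Cebpa (0.91). Fmod, like Prelp, encodes a proteoglycan of connective tissue.

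The rest of the complement system was taken from lists of 54 further genes, of which 27 were expressed enough to be tested. In the comparisons of KO, R206W and P209L mice with their own controls, 0 of the 27 passed, where 0.00615%, 0.0369% and 0.0984% of all genes did. At an unadjusted p under 0.05 (limma), 2, 0 and 3 of the 27 passed, against 4.08%, 2.19% and 7.46% of all genes. Of the initiation and convertase genes 8 of 18 were tested, of the terminal pathway 1 of 7, of the regulators 15 of 22 and of the receptors 4 of 8. Cr1l is on both the regulator and the receptor list and is counted in each. Cfb and Cfd of the alternative pathway, Cfi, the protease that inactivates C3 and C4 fragments, and Hc, which encodes C5, fell below the level for a test, as did C5ar1, a receptor of the C5 fragment.

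In the comparisons of 3 with 8 weeks, most of those that passed were lower at 3 weeks, as were most of all genes that passed (32.1% lower and 13.9% higher in mutants, 24.8% and 11.3% in controls). In mutants 2 of the 27 were higher and 13 lower, with a median of -0.32 against -0.16 for all genes, and in controls 2 were higher and 4 lower, with a median of -0.16 against -0.12. With median-of-ratios scaling 4 were higher and 12 lower in mutants, and 4 higher and 3 lower in controls, so the balance in controls depended on the scaling. Itgb2, the beta chain that pairs with the product of Itgam, was -0.58 in controls and -0.63 in mutants (limma, adjusted p = 0.0333 and 0.00781), the same direction as Itgam. The Itgb2 call in controls was lost under 6 of 17 alternatives, with the largest loss without P209L control 1 (-0.33, adjusted p = 0.387). Among regulators, Cr1l, which controls C3 and C4 on cell surfaces, was -0.57 and -0.31 (adjusted p = 0.00217 and 0.0214). The Cr1l call in mutants was lost with median-of-ratios and with quantile scaling. Csmd3, a regulator-like membrane protein of neurons, was -0.49 and -0.43 (adjusted p = 0.0121 and 0.00812). The Csmd3 call in controls was lost without P209L control 2 (-0.36, adjusted p = 0.176), and that in mutants with quantile scaling (-0.26, adjusted p = 0.0611) and without P209L 1 (-0.35, adjusted p = 0.0501).

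Several regulators and initiators passed in mutants and not in controls, and the difference between the comparisons was not tested. Vtn (vitronectin) was -1.32 (limma, adjusted p = 0.000494) and Clu (clusterin), both of which bind the terminal complex, was -0.95 (adjusted p = 0.00055). Clu was the most abundant of all complement genes, at 271 to 839 TPM. Colec12, a collectin, was -0.64 (adjusted p = 0.000548), Cd93, a receptor-like protein of endothelium, was -0.79 (adjusted p = 0.00627), and C1ra, a protease of the C1 complex, was -0.70 (adjusted p = 0.00891, and 0.0589 without P209L 2). The 8 endothelial markers had 6 lower and 0 higher in the same comparison, with a median of -0.95 and sums of 178 to 213 TPM in P209L mice and 230 to 296 TPM in the 8-week mutants, and their part in the Cd93 difference was not tested. C8g, a lipocalin that joins the terminal complex, was higher in both comparisons, by 0.65 and 0.84 (adjusted p = 0.0237 and 0.00178), and Cd46 was higher in controls by 0.40 (adjusted p = 0.0274). In controls both calls were lost without a filter and without either P209L control, with C8g at 0.62 (adjusted p = 0.145) and Cd46 at 0.45 (adjusted p = 0.0995) without P209L control 2 and at 0.69 (adjusted p = 0.107) and 0.35 (adjusted p = 0.184) without P209L control 1. That of Cd46 was also lost without R206W control 2 (0.37, adjusted p = 0.0544). C4a was 0.69 higher in mutants (adjusted p = 0.00647), and 0.51 without P209L 1 (adjusted p = 0.0542).

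Of the 8 genes on the receptor list 4 were tested. C3ar1 lay between 0.75 and 1.43 TPM in all mice, Itgb2 between 0.92 and 3.63 TPM and Cd93 between 1.08 and 4.81 TPM. Cr1l, which is on the regulator list as well, lay between 15.96 and 25.8 TPM. Of the 11 marker lists, only the interferon response list, genes induced by interferon, had higher and no lower genes at 3 weeks in both comparisons, with 4 of 8 tested genes higher in controls and 7 of 8 in mutants, and with the same holding after median-of-ratios scaling. Of all genes 11.3% were higher in controls and 13.9% in mutants, before that scaling. Its sums were 130 to 154 TPM in P209L mice, 110 to 130 TPM in their controls and 76.4 to 108 TPM in the 8-week mice. P209L mice, which had the highest mean C4b and C3, also had the highest interferon sums, with P209L control 2 level with the lowest P209L mouse, and the part of these in the C4b values was not tested. Reactive astrocyte markers, of which 5 of 9 were tested, had 0 passing in either comparison, and astrocyte markers were lower at 3 weeks for 4 of 9 in controls and 7 of 9 in mutants, against 24.8% and 32.1% of all genes. The reactive astrocyte sums split the 3-week mice. They were 55.4 TPM in P209L control 1 and 67.7 TPM in P209L 1. P209L control 2, P209L 2 and P209L 3 had 141, 117 and 163 TPM. These mice also had the highest C4b, at 7.12, 13.8 and 8.28 TPM, beside 6.74 TPM in P209L 1. The part of reactive astrocyte transcripts in the C4b values was not tested.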

How the data were processed

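The deposited values are TPM, listed by symbol with 1 column a mouse, as the authors made them. The submitters' processing notes name Trim Galore, STAR 2.7.1a, GATK 4.0.4.0, RSEM and mm10, and the annotation release is not given in the sources used here. TPM rescales each library to 1000000, so abundant transcripts move all others and depth is lost. Repeated symbols (120 of 55573 entries) were summed. Genes with a mean of at least 1 TPM over 17 samples (16265) were analysed as log2(TPM + 1), which understates changes of low genes, in R 4.3.3, with limma 3.58.1 and its trended eBayes (tested on simulated data), 6 group means and Benjamini-Hochberg adjustment over all genes (threshold 0.05, two-sided). Where nothing says that mice came from separate litters, p-values measure only the spread between these samples.

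Positions and transcripts came from GENCODE M21 (GRCm38). The 7 genes and all lists were chosen with earlier results of these data known. Named beside them were other complement genes past the threshold (at most 10 by p in a comparison), the most abundant or near-absent list members, and the 5 genes most like each by r within groups; Csf1r, Trem2, Tyrobp, P2ry12, C3ar1, C5ar1, Cfb, Cfd, Cfi and Hc were named after their values were seen. Alternatives were pseudocounts of 0.1 and 0.5, no filter or a mean of at least 5 TPM, median-of-ratios and quantile scaling, sample weights, a replicate block, the compared groups alone, and each mouse left out. Summing C4a with C4b and leaving out both libraries that stood apart were added after the data were seen. Some genes that the rule names are not reported here.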

Additional observations from a re-analysis of the deposited data

How the results depend on the processing

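Over 52 log2 changes of named genes and 916 alternative fits of them, 835 kept direction and side of the threshold, 47 lost their call, 3 gained one and 31 changed sign, none of the sign changes in a called value. Of the 6 complement genes tested, the number that passed stayed at 0 in the comparisons of KO, R206W and P209L with their own controls, of the wild-type groups of 8 weeks, and of the effects of the lines, under every alternative that was run. Between the P209L controls and the 8-week controls it was 3 and became 1 without a filter, 1 in a fit of the compared groups alone, 1 without KO control 1 and P209L control 2 (chosen after the data were seen) and 1 to 3 with each mouse left out. In that comparison 5876 of all 16265 genes passed in the main fit, 5465 of 33969 without a filter and 4319 of 16265 in the compared groups alone. The loss without P209L control 2 follows its C1q values, and the cause of the other losses was not tested. Between P209L and the 8-week mutants it was 2 to 3 with each mouse left out. With sample weights, 5 of the 27 other complement genes passed in KO, where 2138 of all 16265 genes did. Between the controls of 3 and 8 weeks 15 of the 27 passed, where 9470 of all genes did. For the KO effect minus the R206W effect 1 passed, where 319 of all genes did. Between those controls 2 to 14 passed with each mouse left out, 14 of them without KO control 1. No count over all genes is given here for the fits with a mouse left out. Sample weights (0.0819 for KO control 1) thus raised the count over all genes from 1 to 2138 in KO, and from 6 to 149 in R206W. In P209L that count was 16 and became 66 with median-of-ratios factors, 58 with quantile scaling, 52 without a filter, 72 with weights, 25 with the replicate block and 6 in its own groups.

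None of the values that changed sign was past the threshold, and some were not near 0, such as C4b in the controls of 3 against 8 weeks (0.33), Serping1 in KO (0.25) and C1qa in those controls (0.22). With sample weights Itgam in KO was -0.23, and in R206W C1qa was 0.00485 and C1qc 0.0178. Without KO control 1 and P209L control 2, Itgam in KO was -0.10, C1qa, C1qb and C1qc in P209L were 0.16, 0.093 and 0.26, and C1qa and C4b in the controls of 3 against 8 weeks were -0.13 and -0.11. C1qa in P209L against the 8-week mutants was 0.12 with median-of-ratios factors and 0.0642 with quantile scaling. With each mouse left out, the ranges that crossed 0 were -0.10 to 0.24 for Itgam and -0.0227 to 0.45 for Serping1 in KO, and -0.086 to 0.0243 for C1qa, -0.0567 to 0.0267 for C1qc, -0.0761 to 0.0585 for Itgam and -0.16 to 0.16 for Serping1 in R206W. In P209L they were -0.49 to 0.16 for C1qa, -0.55 to 0.093 for C1qb and -0.31 to 0.26 for C1qc. Between controls of 3 and 8 weeks they were -0.10 to 0.55 for C1qa, -0.10 to 0.76 for C4b and -0.35 to 0.0569 for Serping1, and between mutants -0.16 to 0.035 for C1qa. Where a P209L control was left out, the lone control was assumed to vary like the other groups.

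The replicate numbers did not pair the mice, since the deviations of same-numbered mice correlated with r = 0.117, -0.0581 and 0.331 in the KO line, -0.0283, -0.0297 and -0.113 in R206W and 0.0814 and 0.00276 in P209L. With the replicate block the number of complement genes that passed was 3 between the controls of 3 and 8 weeks, 3 between the mutants and 0 in each other comparison, and it changed no call of the 6 genes. Depth is unknown, so no counting error could be set on the low values of C3, which was tested in the fit without a filter alone.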
